A study of Mus musculus with 24 samples.

Results

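Accessible chromatin of mouse CD8 T cells given lactate was compared with that of cells given sodium chloride (NaCl). The 6 libraries compared, 3 with lactate and 3 with NaCl, were taken from a series of 24, in which 12 libraries measured open chromatin by ATAC-seq and 12 measured transcripts by RNA-seq, 3 for each of 4 treatments. All 75802 deposited peaks were tested. The cells came from spleens and lymph nodes of C57BL/6J mice, were purified with magnetic beads, activated with a CD28 antibody and IL-2 among other additions, and kept in culture for 3 days. NaCl or lactate was added at 20 mM from day 2 to day 3, so every library came from activated cells with added salt; the labels name the lactate as its sodium salt. The other treatments were sodium pyruvate, and lactate together with Oxyrase, a preparation of bacterial membranes that removes oxygen from a medium; their libraries entered the model but not the comparison. The labels give no age or sex of the mice, and nothing in them ties a library to its own animal or culture, so the p-values measure only the spread between these libraries, which may be technical.

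In ATAC-seq the Tn5 transposase inserts adapters where DNA is not covered by nucleosomes or other tightly bound proteins, and a region with many insertions is called a peak. The most open regions of a cell are usually the promoters of genes in use, many of them rich in CpG dinucleotides, while peaks away from promoters often mark enhancers, which differ more between cell types. Lactate is made from pyruvate, the product of glycolysis, which activated CD8 T cells use heavily. Lactate enters cells through monocarboxylate transporters and is known to alter histone modification and the redox state of cells in which it accumulates. A bulk ATAC-seq library cannot tell a smaller share of cells with an open region from a weaker opening in each cell.

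The sequences shown are RefSeq promoter windows (GRCm38.p6; 250 bases before to 50 bases after the start) that overlap peaks with the largest decreases or the smallest p among lower peaks, because these carry the strongest decreases at transcription starts. No peak chosen in the same way among the higher ones overlapped such a window. Capitals mark matches, on either strand, to 9 short motifs searched, which were the SP/KLF motif GGGCGG, the NFY motif CCAAT, the ETS motif CCGGAAG, the NRF1 motif GCATGCG, the CRE motif TGACGTC, the YY1 motif AAGATGG, the RUNX motif TGTGGTT, the AP-1 motif TGANTCA and the E-box CACGTG.
Sphk1, chr11:116531661-116531960, plus strand: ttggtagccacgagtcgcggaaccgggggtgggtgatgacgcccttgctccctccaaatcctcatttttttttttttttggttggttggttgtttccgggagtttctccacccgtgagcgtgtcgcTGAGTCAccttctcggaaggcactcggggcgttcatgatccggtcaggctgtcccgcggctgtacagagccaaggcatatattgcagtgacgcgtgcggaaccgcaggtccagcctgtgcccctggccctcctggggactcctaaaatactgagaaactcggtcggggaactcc
Brd2, chr17:34122558-34122857, minus strand: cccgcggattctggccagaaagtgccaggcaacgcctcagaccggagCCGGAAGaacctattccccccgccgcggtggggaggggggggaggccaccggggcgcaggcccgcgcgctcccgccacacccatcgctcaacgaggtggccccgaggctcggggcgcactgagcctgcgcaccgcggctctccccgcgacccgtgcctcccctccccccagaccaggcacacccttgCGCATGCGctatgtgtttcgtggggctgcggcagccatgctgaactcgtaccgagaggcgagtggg
Kifc5b, chr17:26916841-26917140, plus strand: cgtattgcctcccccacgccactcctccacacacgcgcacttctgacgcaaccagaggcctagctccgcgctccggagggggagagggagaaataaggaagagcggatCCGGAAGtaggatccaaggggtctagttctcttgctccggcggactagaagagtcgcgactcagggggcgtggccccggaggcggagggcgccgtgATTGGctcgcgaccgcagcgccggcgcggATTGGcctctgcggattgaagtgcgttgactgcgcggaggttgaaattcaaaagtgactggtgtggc
The Sphk1 window held 1 AP-1 match, and 7.81% of all 32851 promoter windows held one. The Brd2 window held 1 ETS match and 2 NRF1 matches that overlap on opposite strands; 8.86% and 3.58% of windows held these motifs. The Kifc5b window held 1 ETS match and 2 NFY matches, both read on the opposite strand, a motif present in 37.4% of windows. The windows held 21, 32 and 30 CpG dinucleotides in that order.

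The 6 libraries held 25308254 to 32718201 counts in peaks, and the median peak had 134 to 173 counts. Marker transcripts were measured in the RNA libraries, which are separate from these. The summed transcript level of 7 T cell markers was 2062 to 2121 CPM (counts per 1000000 counts of the library) with NaCl and 2000 to 2057 CPM with lactate. That of 3 CD8 markers was 1008 to 1060 and 988 to 1021 CPM. Markers of B cells, myeloid cells, NK cells and erythroid cells summed to at most 1.89, 1.87, 0.613 and 0.192 CPM in any NaCl or lactate RNA library. The sum of 4 markers of CD4 and regulatory T cells was 15.9 to 17.2 CPM with NaCl and 20.5 to 22.0 CPM with lactate, and Zbtb7b among them had means of 9.97 and 16.0 CPM. In the ATAC-seq libraries the gene-end peaks of these CD4 and regulatory T markers summed to 86.7 to 99.7 CPM with NaCl and 73.9 to 80.9 CPM with lactate, the other direction. Peak sums of B, NK and erythroid markers were also lower with lactate without overlap, while those of T cell, CD8 and myeloid markers overlapped. The part of those other cells in the results below was not tested. No pair of replicates was a repeated library: the chi-square per degree of freedom of their counts was 2.28 to 6.67.

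NaCl 3 did not lie with the other NaCl libraries. Each library was placed on the line from the NaCl mean (0) to the lactate mean (1) of the remaining libraries. NaCl 1 and NaCl 2 lay at 0.20 and 0.07, NaCl 3 at 0.69, and lactate 1, 2 and 3 at 0.50, 0.73 and 0.78. The value of NaCl 3 was above that of lactate 1, but these values do not share a line, since each library was left out of its own group mean. The NaCl mean used for lactate 1 includes NaCl 3, which moves the 0 point toward lactate. The places of NaCl 3 and lactate 1 therefore cannot be ranked. The place of NaCl 3 was 0.71 in gene-end peaks alone and 0.69 in all others. In the peaks called when NaCl 3 was left out, it lay nearer to the lactate than to the NaCl mean in 82.2%. Among the peaks called without each of the others, this share was 2.30% for NaCl 1 and 1.17% for NaCl 2. It was 65.5%, 91.9% and 97.5% for lactate 1, 2 and 3. These shares use different peaks and lines, so those of NaCl 3 and lactate 1 cannot be ranked either. The label of NaCl 3 was kept, and results are given with and without it. NaCl 3 was singled out for lying toward lactate, so leaving it out widens the difference between the groups by choice. Calls and adjusted p-values without it are therefore no independent support for a difference.

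**Figure D1:**
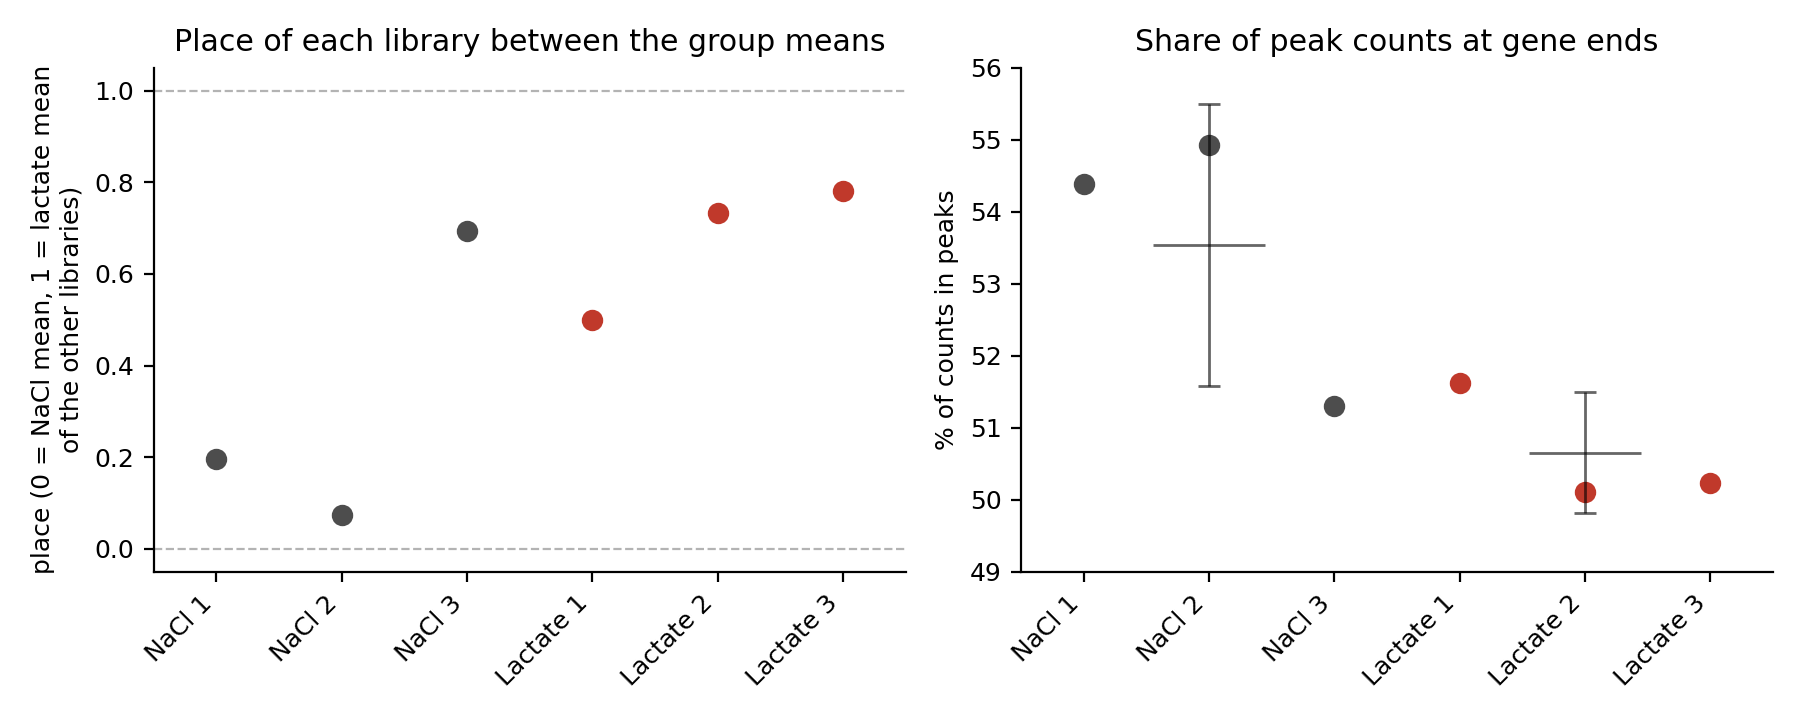
Left, place of each of the 6 libraries between the NaCl mean (0) and the lactate mean (1) of the other libraries, over all peaks. NaCl 3 has a value of 0.69. Each library has its own line, so the values do not rank the libraries strictly. Right, share of each library's peak counts in gene-end peaks, with bars for the mean and SD of each group (axis starts at 49%); NaCl 3 is below lactate 1.

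With lactate, 4857 of 75802 peaks differed from NaCl (6.41%; edgeR quasi-likelihood test with Benjamini-Hochberg adjusted p under 0.05). Of these 4001 were lower (5.28% of all peaks) and 856 higher (1.13%). The differences were small: the median called peak was 1.33-fold lower or 1.36-fold higher, and 19 peaks in each direction differed by 2-fold or more. The CPM ranges of the groups did not overlap in 807 of the 856 higher peaks (94.3%) and in 2957 of the 4001 lower peaks (73.9%); over all peaks they did not overlap in 21.2%, with lactate higher in 11.2% and lower in 9.97%. In counts simulated for this comparison in 75801 peaks, the test found 6% of those given a 1.25-fold change, 38% of those given 1.5-fold and 86% of those given 2-fold, so differences of the median size were often missed in the simulation.

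The number of called peaks depended on single libraries. Without NaCl 3 it rose to 11317, of which 3680 were higher and 7637 lower, and these included 4795 (98.7%) of the peaks called with all libraries. Without NaCl 1 or NaCl 2, which leaves NaCl 3 and 1 other control, it dropped to 1262 and 684. Without lactate 1, 2 or 3 it was 5372, 2279 and 1147. Lower peaks outnumbered higher ones in each of these sets. The share of higher calls was 17.6% with trimmed-mean scaling, 45.5% (2303 of 5067) when libraries were scaled to their total counts and 33.8% (1865 of 5511) after a trend on mean accessibility was removed, so the balance of higher and lower peaks is relative to the scaling.

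**Figure D2:**
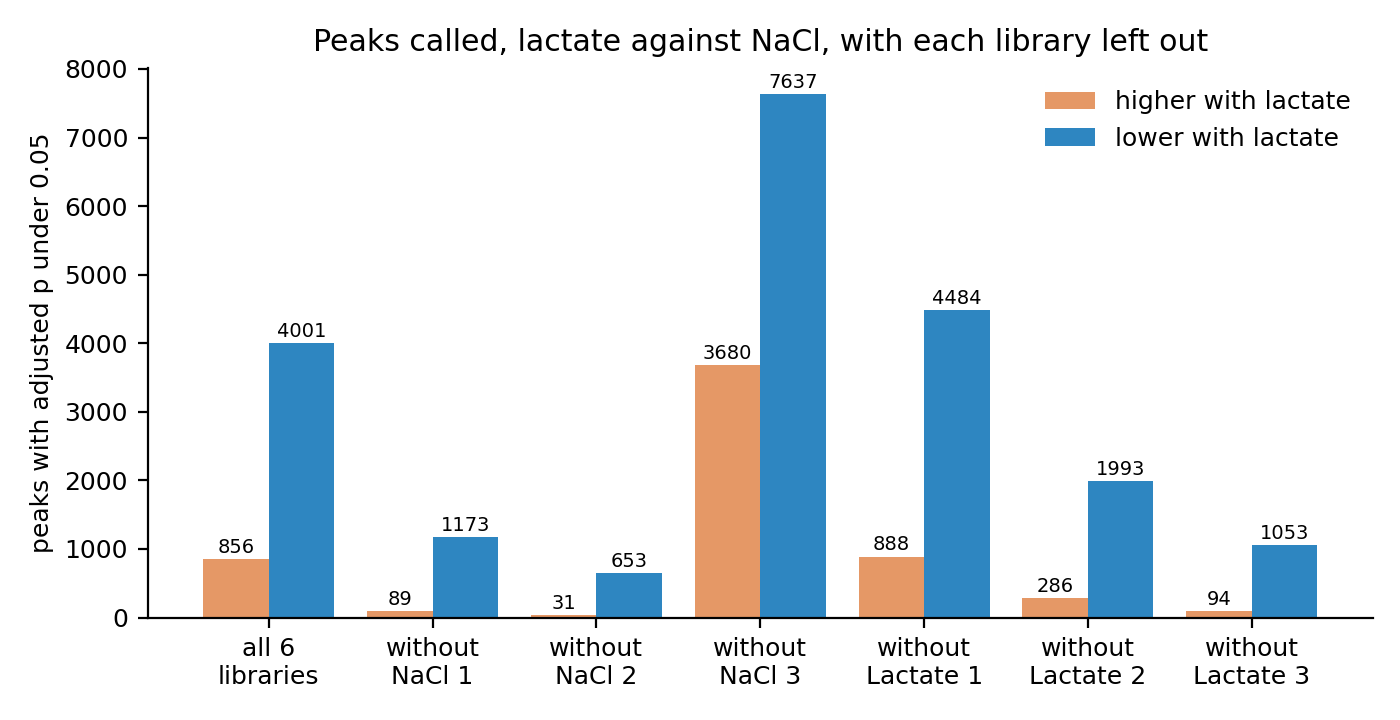
Number of peaks with an adjusted p under 0.05 that were higher (orange) or lower (blue) with lactate, for all 6 libraries and with each library left out in turn. The counts are highest without NaCl 3 (3680 higher, 7637 lower) and smallest without NaCl 2 (31 and 653).

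Among lower peaks that were well covered (mean log2 CPM of at least 3) and whose groups did not overlap, the 8 with the largest decreases lay at or near Tspan3, Brd2, Tead4, Mllt6, Gadd45b, Kifc5b, Myo1d and Mir6998. At the promoter of Brd2, which encodes a bromodomain protein that binds acetylated histones, the peak chr17:34122235-34122844 had 48.6, 54.3 and 34.0 CPM in NaCl 1 to 3 and 28.1, 27.0 and 24.1 CPM in lactate 1 to 3 (log2 fold change −0.79 ± 0.11 SE, adjusted p = 0.000126). Its lowest control was NaCl 3, and without NaCl 3 the log2 fold change was −0.96. The groups could not overlap here, since peaks with overlap were left out of the choice. The promoter sequence above with its NRF1 and ETS matches belongs to this peak. The transcript of Brd2 did not pass the test (log2 fold change −0.00, adjusted p = 0.964).

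The promoter peak of Sphk1, which encodes sphingosine kinase 1, had the lowest value of those with the smallest p: 9.30, 9.32 and 6.78 CPM with NaCl and 4.46, 4.37 and 4.20 CPM with lactate (−0.96 ± 0.14, adjusted p = 0.000129; −1.10 without NaCl 3). At Kifc5b, which encodes a kinesin motor, the promoter peak had 54.1, 52.7 and 35.9 CPM against 30.7, 26.4 and 27.5 CPM (−0.75 ± 0.11, adjusted p = 0.000129). In both, the lactate libraries lay close together and below every control, which the rule of choice required for Kifc5b. The transcript values, −0.78 for Sphk1 (adjusted p = 0.101) and 0.11 for Kifc5b (adjusted p = 0.321), did not pass the test.

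A peak 556 bp from an end of Gadd45b, a stress-induced gene that inhibits cell cycle progression, fell from 15.1, 15.3 and 11.4 to 9.22, 7.43 and 7.81 CPM (−0.76 ± 0.13, adjusted p = 0.000331), and its transcript was lower too (−0.27, adjusted p = 0.0245). A peak at an end of Mllt6, which encodes a PHD finger chromatin protein, had 29.4, 34.2 and 18.6 CPM against 18.0, 15.2 and 14.6 CPM (−0.78 ± 0.13, adjusted p = 0.000299); here NaCl 3 lay just above lactate 1. Inside Tead4, which encodes a TEAD transcription factor of the Hippo pathway, a peak had 26.9, 33.3 and 19.6 CPM against 17.5, 15.8 and 12.9 CPM (−0.78 ± 0.12, adjusted p = 0.000240). In these peaks too NaCl 3 was the lowest control. That the groups do not overlap was a condition of their choice.

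Peaks near Tspan3 and in Myo1d, which encode a tetraspanin and an unconventional myosin, had log2 fold changes of −0.83 ± 0.14 (adjusted p = 0.000305) and −0.75 ± 0.15 (adjusted p = 0.00104), as did a peak 123 bp from the microRNA gene Mir6998 (−0.75 ± 0.13, adjusted p = 0.000494). The peak near Tspan3, 10861 bp from the gene, had 10.2, 12.3 and 8.43 CPM with NaCl and 6.18, 5.25 and 5.84 CPM with lactate, and the Tspan3 transcript was also lower (−0.27, adjusted p = 0.0125). Among the peaks of smallest p, one near Fgd2, a gene for a Cdc42 exchange factor, had 39.8, 40.3 and 28.2 CPM against 24.2, 20.0 and 20.1 CPM (−0.75 ± 0.10, adjusted p = 0.000126), and one at the predicted gene Gm30368 had a log2 fold change of −0.73 ± 0.10 (adjusted p = 0.000126). Each of the 11 lower peaks named so far was also called with any 1 of the 6 libraries left out.

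Of all 75802 peaks, 56191 lay away from gene ends and 11079 overlapped a promoter window. The higher peaks of the same rules likewise lay mostly inside or between genes and not at promoters. Among the well covered ones (mean log2 CPM from 3 upward) the peak with the largest rise, chr1:86342250-86343441, lay 1278 bp from an end of Ncl, the gene of the nucleolar protein nucleolin, on the side away from its start; it had 11.5, 8.83 and 12.5 CPM with NaCl and 16.8, 19.2 and 20.4 CPM with lactate (0.77 ± 0.14, adjusted p = 0.000604; 0.88 without NaCl 3). NaCl 3 was the highest control, and groups that do not overlap were again a condition of the choice. The Ncl transcript was higher as well (0.28, adjusted p = 0.00810).

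Larger rises were found in less covered peaks with some of the smallest p. A peak 2552 bp from Ptprc, which encodes the leukocyte phosphatase CD45, rose from 3.82, 2.92 and 4.60 to 6.86, 7.58 and 7.84 CPM (0.96 ± 0.16, adjusted p = 0.000338). Inside Pfkfb4, which encodes a regulator of glycolysis, a peak rose from 3.71, 2.62 and 3.52 to 5.66, 6.36 and 6.10 CPM (0.88 ± 0.16, adjusted p = 0.000603). The transcripts of Ptprc (−0.06, adjusted p = 0.252) and Pfkfb4 (−0.01, adjusted p = 0.982) did not pass the test. Peaks inside the autophagy gene Atg10 (0.53 ± 0.10, adjusted p = 0.000544) and the amino acid transporter gene Slc38a11 (0.59 ± 0.11, adjusted p = 0.000809) also rose; the Atg10 peak had 16.8, 15.8 and 20.3 CPM against 24.3, 25.8 and 26.7 CPM.

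Among higher peaks near lymphocyte genes, one 469 bp from an end of Nkg7, a gene for a cytotoxic granule protein, had 6.48, 5.80 and 8.87 CPM with NaCl and 10.9, 10.3 and 10.6 CPM with lactate (0.58 ± 0.13, adjusted p = 0.00309; 0.0883 without NaCl 2). One near Il21r, the IL-21 receptor gene, had 6.75, 5.54 and 8.09 CPM against 8.67, 10.7 and 11.1 CPM (0.57 ± 0.13, adjusted p = 0.00437; 0.110 without NaCl 2 and 0.0686 without lactate 3). The Il21r transcript was lower (−0.22, adjusted p = 0.0136) and that of Nkg7 did not pass the test (−0.18, adjusted p = 0.0596). In both peaks NaCl 3 was the highest control.

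In Uchl3, which encodes a ubiquitin hydrolase, a peak rose by 0.56 ± 0.12 (adjusted p = 0.00249; 0.0513 without NaCl 2), and so did the transcript (0.26, adjusted p = 0.00129). In Golm1, which encodes a Golgi membrane protein, the values were 7.14, 7.13 and 7.28 CPM with NaCl and 10.2, 11.8 and 9.68 CPM with lactate (0.55 ± 0.12, adjusted p = 0.00366), the tightest set of controls among these peaks. In Arf3, which encodes a small GTPase, NaCl 3 (10.2 CPM) lay next to lactate 2 (10.7 CPM), and the rise of 0.56 ± 0.15 (adjusted p = 0.0165) was not called without NaCl 1 (0.117), NaCl 2 (0.293) or lactate 3 (0.0939).

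**Figure D3:**
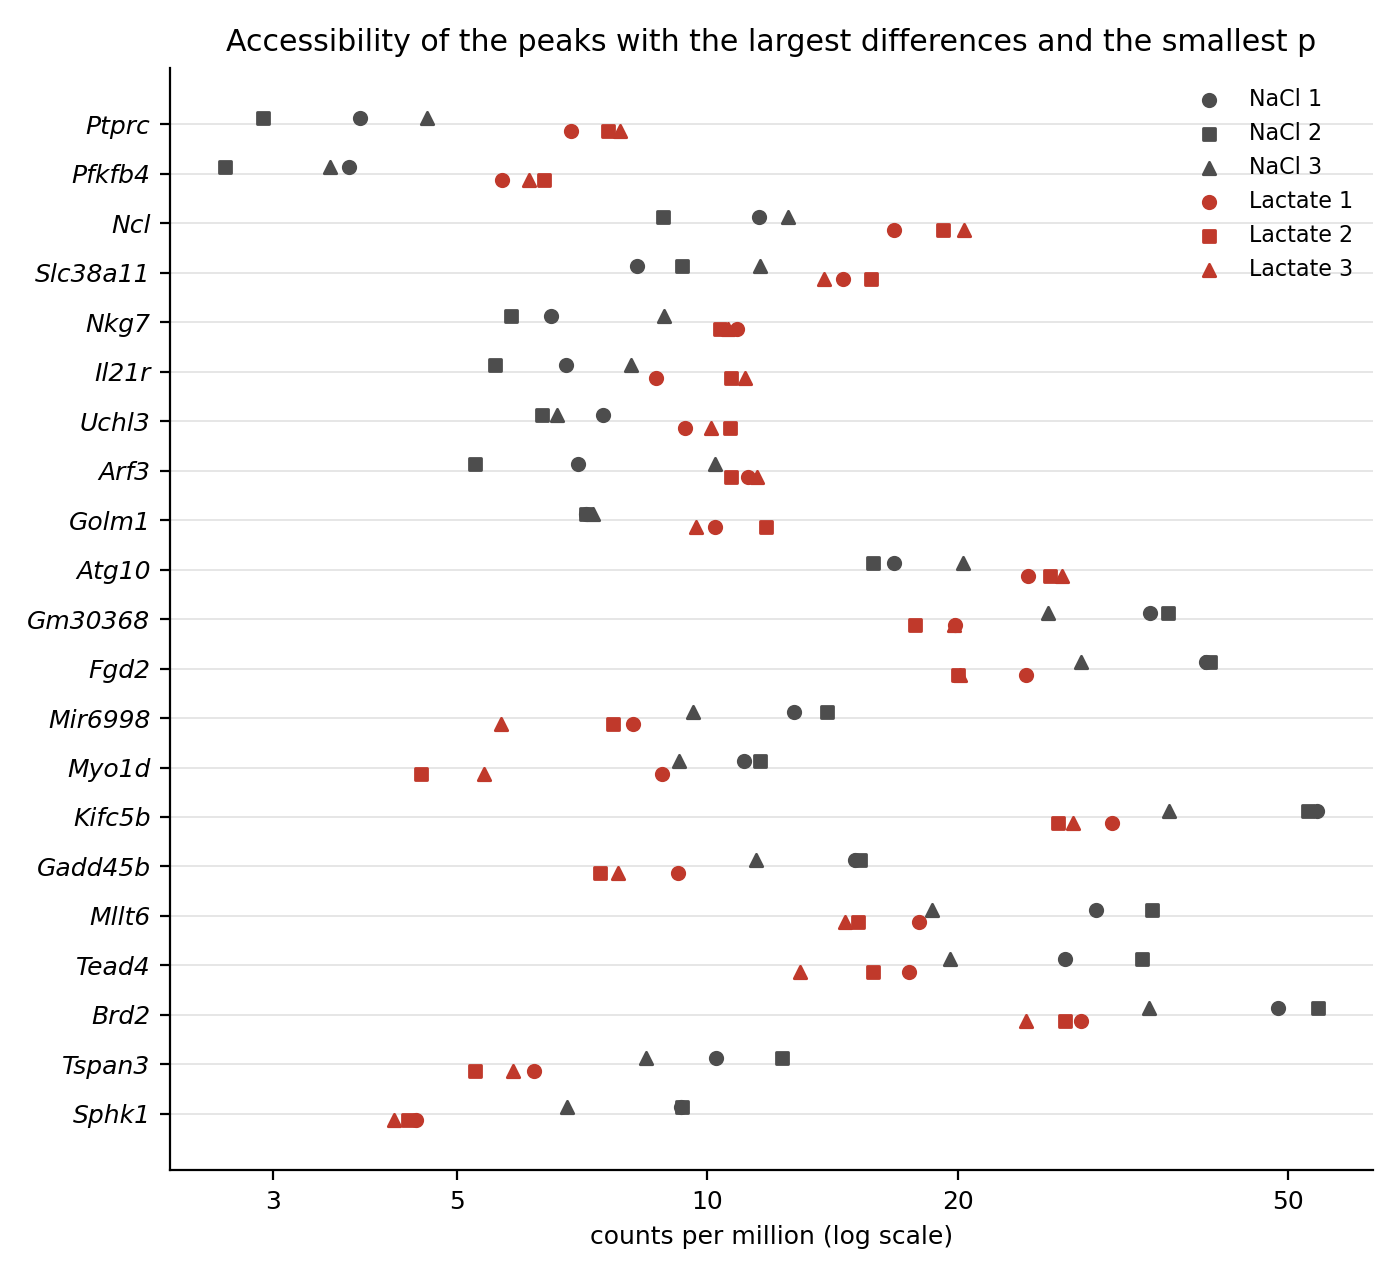
Accessibility in CPM (log axis) of the 21 peaks with the largest called differences or the smallest p, named by the nearest gene and ordered by log2 fold change, in each NaCl (grey) and lactate (red) library; circles, squares and triangles are replicates 1, 2 and 3. No pair of groups overlaps, which was a condition for the peaks chosen by largest difference. NaCl 3 (grey triangles) is the control nearest to the lactate libraries in most peaks.

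The lower peaks lay mostly at gene ends. A peak within 1 kb of either end of a RefSeq gene counted as a gene-end peak, since the gene coordinates used carry no strand. Of 19611 gene-end peaks, 2748 were lower (14.0%) and 117 higher (0.597%), with a median log2 fold change of −0.08; of 56191 other peaks, 1253 were lower (2.23%) and 739 higher (1.32%), with a median of 0.06. Gene-end peaks thus made up 68.7% of the lower and 13.7% of the higher calls. Among peaks within 1 kb of an annotated transcription start 17.5% were lower, and among gene-end peaks with the nearest annotated start farther away 7.56%. Intragenic peaks had 529 higher and 792 lower calls of 36333, and peaks more than 50 kb from a gene 10 higher and 20 lower of 1423. Without NaCl 3, 25.9% of gene-end peaks and 4.57% of the others were lower, and 2.79% and 5.57% were higher.

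These shares are relative to 1 scaling for all peaks. When gene-end peaks and other peaks were scaled separately, an alternative added after the locations were seen, 46.1% of the lower calls lay at gene ends, and gene-end peaks are 25.9% of all peaks. The same contrast without a model is the share of a library's counts at gene ends, which was 54.4%, 54.9% and 51.3% in NaCl 1 to 3 and 51.6%, 50.1% and 50.2% in lactate 1 to 3. Lactate 1 lay above NaCl 3, so the groups overlapped. The means were 53.5% ± 1.96 and 50.7% ± 0.842 (SD, n = 3), a difference of −2.88 percentage points (exact permutation test, 2-sided p = 0.2, where 0.1 is the smallest p that 3 against 3 allows). Without NaCl 3 the difference was −4.00 points.

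Gene-end peaks were also the most open, so locations were compared among peaks of like accessibility, in 10 groups of equal size by mean log2 CPM. In the 4 least open groups under 1% of peaks were lower at either kind of location. In group 9, 24.8% of gene-end peaks (median log2 fold change −0.15) and 7.50% of the others (0.04) were lower; in group 10, the most open, 25.1% (−0.17) and 12.9% (−0.03). Both openness and location therefore went with lower calls, and the power to call a peak rises with its counts. Without NaCl 3 the shares in group 10 were 49.5% and 24.9%.

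Lower peaks lay in gene-dense parts of the genome. The number of RefSeq genes within 500 kb of each peak's centre was counted, a measure chosen after the locations were seen, and the peaks were divided into 5 equal groups. Between the sparsest group (median 12 genes) and the densest (median 50 genes) the share of lower peaks went from 1.15% to 13.9%, and the share of higher peaks from 1.09% to 0.580%. The order held away from gene ends, where the share of lower peaks was 0.973%, 1.09%, 1.66%, 2.78% and 5.74% from sparse to dense and the median log2 fold change 0.08 in the sparsest and −0.01 in the densest. At gene ends it was 2.11%, 4.29%, 8.96%, 14.7% and 25.1%, while median accessibility in these groups moved only from 3.75 to 4.18 log2 CPM. Without NaCl 3 the gene-end shares ran from 7.50% to 38.9%.

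The share of a library's counts away from gene ends that fell in the densest group was 17.6%, 17.8% and 17.0% with NaCl and 16.3%, 16.5% and 16.2% with lactate. Here the groups did not overlap, and NaCl 3 was the lowest control. The means were 17.5% ± 0.414 and 16.3% ± 0.174 (SD, n = 3; exact permutation test, 2-sided p = 0.1, the smallest possible). In the sparsest group the shares were 21.8%, 21.9% and 22.0% with NaCl and 22.4%, 22.3% and 22.5% with lactate (p = 0.1 by the same exact test), so the lactate libraries were higher there.

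Chromosomes differed as well. The share of lower peaks was highest on chromosome 11 (13.1%), 19 (11.9%) and 17 (10.5%) and lowest on chromosome 18 (1.69%), X (1.71%), 3 (1.84%) and 1 (1.98%), leaving out the Y chromosome with 46 peaks. Among peaks away from gene ends it was 5.61% on chromosome 11 and 0.892% on chromosome 3. Chromosomes 11 and 3 had a median of 34 and 22 genes in the window around a peak, but the order of chromosomes did not follow gene density throughout: chromosome 19, with a median of 27 genes, had a larger share of lower peaks than chromosome 7 (32 genes, 6.78%), and chromosome 15 (23 genes, 7.51%) a larger one than chromosome 2 (25 genes, 5.24%). Higher peaks were most frequent on chromosome 3 (1.86%) and 18 (1.82%) and least on 19 (0.339%) and 11 (0.496%).

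**Figure D4:**
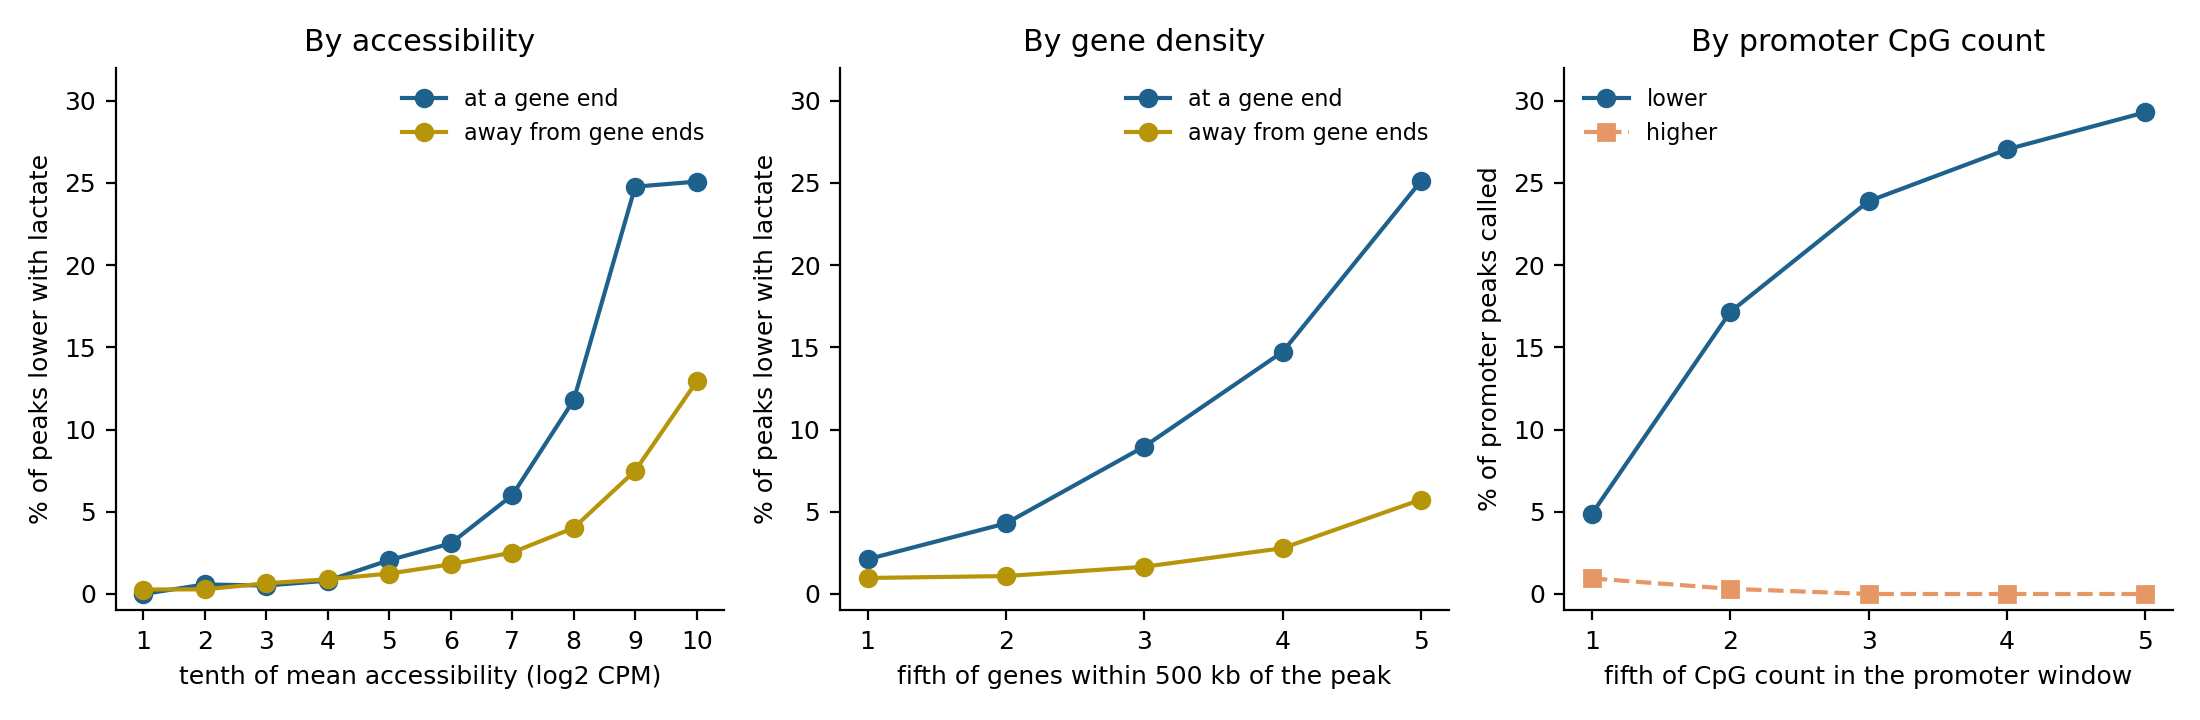
Share of peaks called lower with lactate, at gene ends (blue) and away from them (yellow), by group of mean accessibility (left, 10 groups) and of the number of genes within 500 kb (middle, 5 groups), and share of promoter peaks called lower (blue) or higher (orange) by group of the CpG count of the promoter window (right, 5 groups). The share of lower gene-end peaks reaches 25.1% in the most open and in the most gene-dense peaks, and that of promoter peaks 29.3% in the most CpG-rich windows.

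Of 11079 peaks that overlapped a RefSeq promoter window, 2265 were lower (20.4%) and 28 higher (0.253%). The share of lower peaks went up with the number of CpG dinucleotides in the window: it was 4.87%, 17.1%, 23.9%, 27.0% and 29.3% in 5 groups of equal size, whose median CpG counts were 6, 14, 20, 27 and 37. The median log2 fold change was 0.02 in the CpG-poorest group and −0.20 in the CpG-richest. All 28 higher promoter peaks lay in the 2 CpG-poorest groups (21 and 7). Without NaCl 3 the shares of lower peaks were 9.93% and 52.4% in the poorest and richest groups. Across promoter peaks the rank correlation (Spearman's rho) of the log2 fold change was −0.34 with the CpG count, −0.24 with GC content and −0.29 with mean accessibility; peaks of 1 library share its depth and base composition, so these describe the libraries and carry no p. The CpG-rich group exceeded the CpG-poor group by 1.80, 1.85 and 1.52 log2 CPM in NaCl 1 to 3 and by 1.56, 1.41 and 1.41 in lactate 1 to 3, where NaCl 3 lay below lactate 1 (exact permutation test, 2-sided p = 0.2).

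Motifs were counted in the same promoter windows. The SP/KLF motif GGGCGG was in 35.7% of all promoter windows, in 64.9% of the windows with a peak, in 77.7% of those with a lower and 28.6% of those with a higher peak. The NRF1 motif was in 6.13% of windows with a peak and 8.96% of those with a lower one, the ETS motif in 16.5% and 21.0%, the NFY motif in 37.3% and 43.6%, the YY1 motif in 6.53% and 8.96%, the E-box in 10.3% and 12.7% and the CRE motif in 5.51% and 6.84%. The AP-1 and RUNX motifs were less frequent in windows with a lower peak, at 3.75% against 5.95% and 2.56% against 4.23% of all windows with a peak. Peaks with an AP-1 or RUNX match had a median log2 fold change of −0.08 and −0.07, against −0.14 without. A motif that holds CG is more frequent where CpG content is high, but the NFY and YY1 motifs hold none. Motifs were not compared among windows of like CpG content, and a match says nothing of a factor being bound.

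Gene lists for T cell function, stress, metabolism and housekeeping were described by the gene-end peaks of their members. Over the whole genome 14.0% of gene-end peaks were lower and 0.597% higher. Among promoter peaks 20.4% were lower, and 25.2% among those of the 9218 genes that also had a measured transcript. A list whose share lies near these values does not stand out from promoters in general. The list of p53 targets had 11 of 26 peaks lower, among them Bbc3, which encodes the cell death protein PUMA, with 100.5, 102.5 and 77.1 CPM against 73.1, 65.4 and 64.0 CPM (−0.47 ± 0.10, adjusted p = 0.00162). The Bbc3 transcript was also lower (−0.49, adjusted p = 0.00506), and 7 of 20 transcripts of the list were lower and 0 higher, where 4.12% of all 14749 transcripts tested were lower and 3.61% higher. Without NaCl 1 or NaCl 2 the list kept 2 lower peaks, and without lactate 2 or lactate 3 it had 4 and 2, so its count rests on those libraries as the total does; without NaCl 3 it had 12.

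Enzymes of histone acetylation and lactylation had 10 of 26 peaks lower. At Ep300, whose product acetylates histones and has been described to lactylate them, the promoter peak had 89.1, 89.4 and 65.7 CPM with NaCl and 62.8, 59.9 and 52.6 CPM with lactate (−0.48 ± 0.10, adjusted p = 0.00149). At Hdac5, a histone deacetylase gene, the log2 fold change was −0.53 ± 0.10 (adjusted p = 0.000823), and at an end of Acss2, whose product makes acetyl-CoA from acetate, −0.57 ± 0.10 (adjusted p = 0.000327). The transcripts of Ep300 (−0.01, adjusted p = 0.860) and Hdac5 (−0.04, adjusted p = 0.808) did not pass the test, while that of Acss2 was higher (0.48, adjusted p = 0.00972). The remodellers and architectural proteins had 12 of 37 peaks lower, with Smarca4, the ATPase of the BAF complex, at 63.5, 66.5 and 44.8 CPM against 43.3, 37.8 and 32.4 CPM (−0.62 ± 0.11, adjusted p = 0.000427). The counts of these lists were 3 and 1 without NaCl 2, 3 and 5 without NaCl 1, 5 and 7 without lactate 2, 4 and 5 without lactate 3, and 15 and 21 without NaCl 3.

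Lists of genes that every cell uses were counted in the same way. Cytosolic ribosomal proteins had 13 of 38 peaks lower; the promoter peak of Rps18 had 42.3, 44.4 and 29.9 CPM against 27.3, 24.2 and 23.1 CPM (−0.64 ± 0.11, adjusted p = 0.000299), and that of Rpl23 had a log2 fold change of −0.57 ± 0.11 (adjusted p = 0.000658). Cholesterol synthesis had 8 of 22, mitosis 7 of 22, DNA replication 6 of 29, ribosome biogenesis 7 of 30, the respiratory chain 5 of 28 and a list of constitutive promoters 4 of 22. These shares ran from 17.9% (respiratory chain) to 36.4% (cholesterol synthesis), beside 14.0% of all gene-end peaks and 20.4% of promoter peaks. The respiratory chain and constitutive (18.2%) lists lay between those background shares, and DNA replication (20.7%) was close to that of promoter peaks. Polr2a, of the constitutive list, encodes the large subunit of RNA polymerase II and went from 100.7, 106.9 and 75.9 to 71.3, 61.4 and 61.3 CPM (−0.55 ± 0.10, adjusted p = 0.000646). Of the transcripts of these 7 lists 0 were lower; 3 of 20 were higher in ribosome biogenesis, 3 of 15 in the constitutive list, 1 in each of the ribosomal protein, cholesterol, replication and mitosis lists and 0 in the respiratory chain, beside 3.61% of all transcripts. The Rps18, Rpl23 and Polr2a transcripts did not pass the test (0.11, 0.10 and −0.05; adjusted p = 0.162, 0.181 and 0.463). Without NaCl 1, NaCl 2, lactate 2 or lactate 3 these lists had 0 to 6 lower peaks each, and without NaCl 3 they had 9 to 19.

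In 3 further lists the share of lower peaks was under that of all gene-end peaks, a difference that was not tested. The CD8 T lineage list had 2 of 32 gene-end peaks lower (median log2 fold change 0.06), inhibitory receptors 2 of 28 (0.10) and interferon-stimulated genes 2 of 38 (0.05). Without NaCl 3 these lists had 3, 5 and 5 lower and 1, 4 and 2 higher peaks. The 2 lineage peaks lay at the promoter of Tcf3, which encodes an E protein (−0.46 ± 0.10, adjusted p = 0.00265), and at Thy1 (−0.39 ± 0.09, adjusted p = 0.00525); neither was called without NaCl 1, NaCl 2 or lactate 3 (adjusted p = 0.0502 to 0.101). The interferon list had lower transcripts in 9 of 26 genes, with a median transcript log2 fold change of −0.31, beside 2 lower peaks, at Irf1 and Irf9. Irf1, an interferon-induced transcription factor gene, fell both at its promoter (−0.46 ± 0.10, adjusted p = 0.00318; 0.155 without NaCl 2) and in its transcript (−0.36, adjusted p = 3.55e-05).

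T cell activation had 12 of 40 peaks lower, among them Rel, an NF-kappaB subunit gene (−0.47 ± 0.10, adjusted p = 0.00225), and Jund, an AP-1 subunit gene (−0.50 ± 0.11, adjusted p = 0.00244), and 0 of 40 higher. Neither was called without NaCl 2 (0.0565 and 0.0715) or lactate 3 (0.0518 and 0.0549). Cytokines and chemokines had 6 of 19 lower; at Csf2, which encodes GM-CSF, the promoter peak had 25.4, 25.5 and 20.1 CPM against 18.7, 16.5 and 15.2 CPM (−0.49 ± 0.10, adjusted p = 0.00173), and a peak at an end of the lymphotoxin gene Ltb had 21.5, 23.7 and 20.7 CPM against 16.1, 15.9 and 15.0 CPM (−0.49 ± 0.09, adjusted p = 0.000992). The Ltb transcript was lower as well (−0.32, adjusted p = 0.0326), that of Csf2 was not called (0.07, adjusted p = 0.781). The activation list had 0 lower peaks without NaCl 2, 4 without NaCl 1, 7 without lactate 2, 1 without lactate 3 and 20 without NaCl 3, and the cytokine list had 3 without NaCl 2 or lactate 3 and 8 without NaCl 3.

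In the remaining lists of function and metabolism the shares of lower peaks ran from 8.00% to 30.8%. The integrated stress response had 8 of 26 peaks lower, osmotic stress 4 of 15, lactate and pyruvate handling 4 of 20 and the effector list 5 of 25. Naive and memory genes had 6 of 39, glycolytic enzymes 3 of 25, NRF2 targets 2 of 22 and HIF targets 2 of 25. These counts rest on single libraries. Without NaCl 2 the integrated stress, osmotic, lactate handling, NRF2 and HIF lists had 0 lower peaks, the effector list 2 and the naive and glycolytic lists 1 each. Without NaCl 1 the integrated stress list had 2, the effector list 3, the naive list 2, the glycolytic list 1 and the other 4 lists 0; without lactate 2 or lactate 3 the lactate handling and NRF2 lists had 0, and the integrated stress list 4 and 1, the osmotic list 2 and 0, the HIF list 1 and 0, the naive list 3 and 1, the effector list 4 and 3 and the glycolytic list 1 each. Without NaCl 3 the counts were 11 for integrated stress, 6 for osmotic stress, 7 for lactate handling, 5 for the effector list, 11 for naive and memory, 5 for glycolysis, 6 for NRF2 and 11 of 25 for HIF targets. A single higher gene-end peak was found in each of the effector list and the naive and memory list, and 0 in the other 26 lists. The marker lists of B and myeloid cells and of CD4 and regulatory T cells had 0 called of 8, 13 and 6 gene-end peaks; those of NK and erythroid cells had 1 lower of 3 and 1 lower of 4, at Tyrobp and Klf1. The sign of a list's median turned under at least 1 scaling in a few lists, given with the alternatives.

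**Figure D5:**
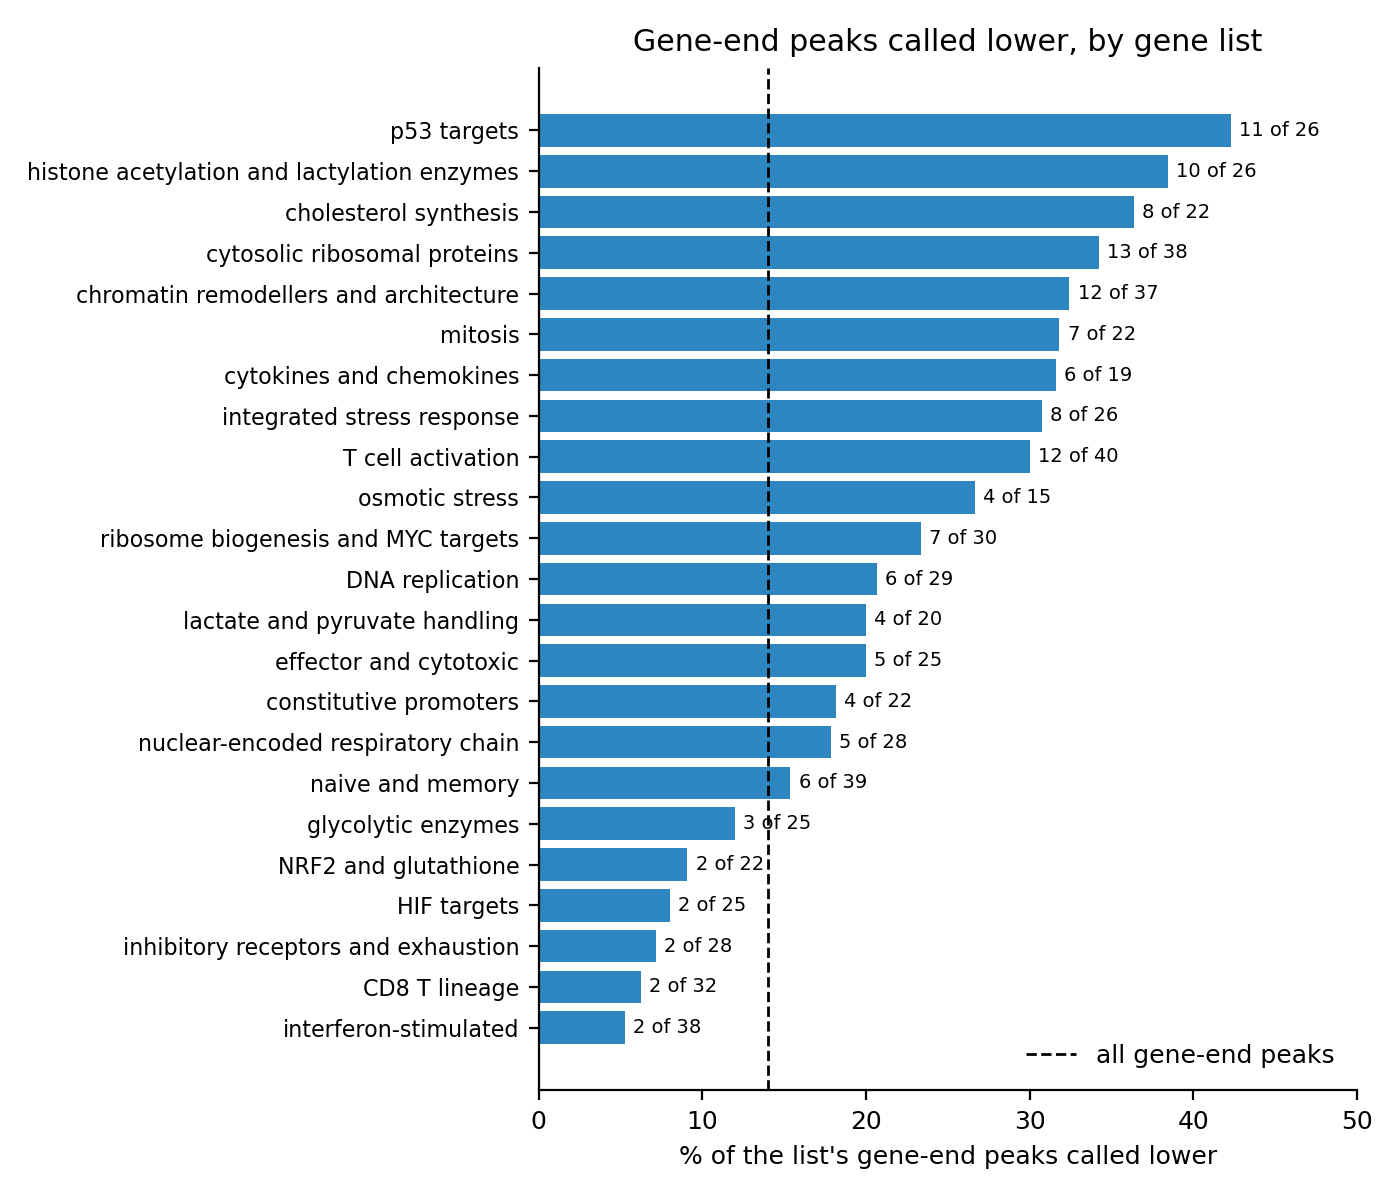
Share of gene-end peaks called lower with lactate in each of 23 gene lists, with the number of lower peaks and of all gene-end peaks of the list. The dashed line is the share over all gene-end peaks, 14.0%. Over promoter peaks, which are not drawn, it was 20.4%. The p53 list is at the top with 11 of 26 and the interferon list at the bottom with 2 of 38.

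At genes chosen for their role in CD8 T cells, 34 in all, peaks in the gene or within 10 kb of it were examined. Over all peaks 5.28% were lower and 1.13% higher. The cytokine gene Tnf had 6 of 7 peaks lower and 0 higher. The Tnf peak of smallest p had 32.2, 32.2 and 22.5 CPM with NaCl and 23.2, 18.1 and 16.7 CPM with lactate (−0.58 ± 0.11, adjusted p = 0.000811); lactate 1 lay above NaCl 3. The neighbouring lymphotoxin genes lie within 10 kb and share these peaks. The Tnf transcript did not pass the test (0.08, adjusted p = 0.546).

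The receptor-induced genes Nr4a1 and Myc and the inhibitors of E proteins Id2 and Id3 had lower peaks. Nr4a1 had 3 of 7, the best with 40.4, 45.8 and 37.1 CPM against 32.3, 28.3 and 29.5 CPM (−0.45 ± 0.09, adjusted p = 0.00147; 0.0512 without NaCl 2). Id3 had 3 of 5, the best with 16.1, 15.7 and 11.9 CPM against 10.6, 8.69 and 10.2 CPM (−0.56 ± 0.12, adjusted p = 0.00190), which was called with any 1 library left out. Id2 had 1 of 3 (−0.36 ± 0.09, adjusted p = 0.0131) and Myc 2 of 6 (−0.38 ± 0.10, adjusted p = 0.0124). The Id2 and Myc peaks were not called without NaCl 1, NaCl 2, lactate 2 or lactate 3 (adjusted p = 0.0798 to 0.219), and no transcript of these 4 genes passed the test.

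Among the fate factors, the promoter peak of Tbx21, which encodes T-bet, had 22.8, 26.6 and 20.7 CPM with NaCl and 16.0, 16.2 and 17.5 CPM with lactate (−0.49 ± 0.10, adjusted p = 0.00147; 0.0557 without NaCl 2). A peak at Tcf7, which encodes TCF-1, had 14.7, 15.2 and 10.5 CPM against 9.10, 10.1 and 8.49 CPM (−0.54 ± 0.12, adjusted p = 0.00375; 0.0598, 0.0845 and 0.0596 without NaCl 1, NaCl 2 and lactate 3), although its transcript was higher (0.15, adjusted p = 0.0340). In Ccr7, the gene of a lymph node homing receptor, 1 of 7 peaks was lower (−0.36 ± 0.09, adjusted p = 0.0118; 0.0870 to 0.163 without NaCl 1, NaCl 2, lactate 2 or lactate 3), and so was the transcript (−0.27, adjusted p = 0.00160). Eomes, Prdm1, Bach2, Tox, Irf4 and Batf had 0 called peaks of 4, 14, 60, 33, 9 and 7. Without NaCl 3 the peaks of smallest p at Tox (0.37, adjusted p = 0.0151) and Irf4 (0.57, adjusted p = 0.0165) were higher. That at Batf was lower (−0.48, adjusted p = 0.0285), and without lactate 1 that at Bach2 was higher (0.50, adjusted p = 0.0499). The transcripts of Irf4 (−0.29, adjusted p = 0.00106) and Bach2 (−0.21, adjusted p = 0.00249) were lower, the other direction. Those of Eomes, Prdm1, Tox and Batf did not pass the test.

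Of the inhibitory receptors, Lag3 had a peak 85 bp from an annotated start that fell from 16.3, 16.0 and 13.5 to 9.56, 10.2 and 10.3 CPM (−0.61 ± 0.10, adjusted p = 0.000385), with every control above every lactate library; it was called with any 1 library left out. Pdcd1, which encodes PD-1, had a peak 3265 bp from its start that rose from 14.9, 17.0 and 16.7 to 19.6, 21.4 and 20.5 CPM (0.34 ± 0.09, adjusted p = 0.0183; 0.0658 to 0.169 without NaCl 1, NaCl 2, lactate 2 or lactate 3). Transcripts of Lag3 (−0.11, adjusted p = 0.217) and Pdcd1 (−0.14, adjusted p = 0.0566) did not pass the test. Havcr2, Ctla4 and Tigit had 0 called of 10, 7 and 9 peaks, and without lactate 1 the Havcr2 peak of smallest p was higher (0.58, adjusted p = 0.0457).

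Among effector genes, a peak in Ifng, the gene of interferon gamma, had 13.0, 14.2 and 14.8 CPM with NaCl and 17.0, 17.9 and 16.9 CPM with lactate (0.30 ± 0.10, adjusted p = 0.0484). It was called with all libraries and without NaCl 3, and not without any other library (adjusted p = 0.0767 to 0.262). With all libraries kept, the call also ended with DESeq2 or its size factors, upper quartile scaling, scaling from peaks away from gene ends, separate scaling, and a model of the 6 libraries alone. The Ifng transcript was higher (0.32, adjusted p = 0.00660). Gzmb and Prf1, the genes of granzyme B and perforin, had 0 called of 2 and 4 peaks, with transcripts higher by 0.38 (adjusted p = 0.00336) and 0.30 (adjusted p = 0.0250).

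Among other genes of that set, Il7r, the IL-7 receptor gene, had 0 of 5 peaks called and its transcript was higher (0.63, adjusted p = 1.18e-05), and Klf2, a quiescence factor gene, had 0 of 4 and its transcript was lower (−0.86, adjusted p = 0.0116); without NaCl 3 a Klf2 peak was called lower (−0.25, adjusted p = 0.0447). At the lactate transporter genes, Slc16a3 had 1 lower peak of 4 (−0.29 ± 0.09, adjusted p = 0.0468; of the 6 fits with a library left out it was called only in that without NaCl 3) and Slc16a1 had 0 of 3. Ldha, the lactate dehydrogenase gene, had 0 of 6 and Cd8a 0 of 7, and all 7 Cd8a peaks had estimates above 0 (0.01 to 0.29). Without NaCl 3 a peak was called lower at Slc16a1 (−0.32, adjusted p = 0.00827) and higher at Ldha (0.41, adjusted p = 0.00615) and Cd8a (0.37, adjusted p = 0.0350), the last also without lactate 1 (0.38, adjusted p = 0.0485). Zbtb7b, which encodes the CD4 lineage factor ThPOK, had 1 lower peak of 4 (−0.48 ± 0.15, adjusted p = 0.0373; 0.0671 to 0.516 with any library but NaCl 3 left out) beside a higher transcript (0.69, adjusted p = 0.000387). Of the 34 transcripts 12 passed the test, where 7.73% of all transcripts did.

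The 6 genes with the most lower peaks were chosen for that count, where 5.28% of all peaks were lower. Fgd2 had 6 called of its 7 peaks, all lower (−0.75 to −0.38), spread over chr17:29370974-29398298. Tnfaip3, which encodes the NF-kappaB inhibitor A20, had 5 of 17 (−0.68 to −0.31), none at a gene end; the best had 34.9, 37.4 and 25.4 CPM with NaCl and 24.5, 18.4 and 17.8 CPM with lactate (−0.68 ± 0.11, adjusted p = 0.000299). Junb, an AP-1 subunit gene, had 4 of 5 lower, all at the gene, with −0.49 ± 0.11 for the best (adjusted p = 0.00260; 0.0572 to 0.0611 without NaCl 1, NaCl 2 or lactate 3). Bahcc1 and Jade2, a chromatin reader gene and the gene of a histone acetyltransferase cofactor, had 5 of 7 and 5 of 9, and the Jade2 transcript was lower (−0.17, adjusted p = 0.0228). The pseudogene Vmn1r-ps2 had 6 of 12.

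The 6 loci with the most higher peaks, chosen in the same way, had fewer called peaks, where 1.13% of all peaks were higher. Tnfrsf1b, which encodes TNF receptor 2, had 4 of 11 (0.32 to 0.42), the best with 37.6, 38.7 and 43.7 CPM against 53.6, 48.9 and 52.2 CPM (0.37 ± 0.09, adjusted p = 0.00800). St8sia1, a ganglioside synthase gene, had 4 of 32, and Sh3kbp1, an adaptor protein gene on the X chromosome, 4 of 47. Snx5, Mpp7 and Synpo had 3 each, of 6, 13 and 9, and Synpo also had 1 lower. In each of these 6 loci the best higher peak was called without NaCl 3 and not without NaCl 2 (adjusted p = 0.0563 to 0.284); leaving out NaCl 1, lactate 2 or lactate 3 ended the call of 5, 4 and 4 of these peaks. Snx5, which encodes a sorting nexin, was the only one of the 6 with a higher transcript (0.17, adjusted p = 0.0162).

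Promoter accessibility and transcripts were compared over the 9218 genes with both. The peak was lower in 25.2% of all these genes, in 19.9% of the 391 whose transcript was higher and in 27.5% of the 415 whose transcript was lower. Conversely, of 2319 genes with a lower promoter peak, 3.36% had a higher and 4.92% a lower transcript, against 4.24% and 4.50% of all 9218. Across genes the rank correlation of the log2 fold changes was 0.01; genes are not independent replicates, and the libraries of the assays are separate. The median transcript log2 fold change of genes with a lower promoter peak was 0.00. The RNA counts are described by their authors as adjusted, without saying how, which bears on all transcript p-values here: leaving out single RNA libraries took the number called from 1140 to between 451 and 1124, and to 451, 513, 529 and 670 without NaCl 2, lactate 2, NaCl 1 and lactate 3.

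The most covered peak of all, chosen after its values were seen, lay at chr17:39843038-39847263 beside Rn18s-rs5, a gene model related to 18S ribosomal RNA. It had 9253, 10180 and 6667 CPM with NaCl and 6754, 5716 and 5339 CPM with lactate (−0.55 ± 0.14, adjusted p = 0.0101), with NaCl 3 just below lactate 1. The next peak, chr17:39847471-39848779, nearest to the gene model AY036118, was lower as well (−0.55 ± 0.13, adjusted p = 0.00534), as were peaks at chr17:36231217-36231606 (−0.59 ± 0.12, adjusted p = 0.00169) and chr11:109011645-109012109 (−0.57 ± 0.12, adjusted p = 0.00195). None of the 4 was called without NaCl 2 (adjusted p = 0.0680 to 0.197) or lactate 3 (up to 0.151). The first 2 of these peaks were also not called without NaCl 1 (0.114 and 0.0782), and the first not without lactate 2 (0.0750). Reads from near-identical ribosomal DNA copies cannot be assigned to one of them, so these levels stand for whatever copies were placed there. Other highly covered peaks, on chromosome 2, with 2817 and 770 CPM in NaCl 1, did not pass the test (−0.12 and −0.18, adjusted p = 0.665 and 0.409).

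The other ATAC-seq treatments share the NaCl libraries with this comparison, and their values are given beside it only for the peaks shown first. By the same edgeR test 0 peaks were called for pyruvate against NaCl (4060 had an unadjusted p under 0.05), and 30885 (40.7%) were called for lactate with Oxyrase. The Brd2 promoter peak had 46.3, 45.4 and 40.7 CPM with pyruvate and 18.5, 20.4 and 20.6 CPM with lactate and Oxyrase. The Ncl peak had a log2 fold change of 0.04 with pyruvate (adjusted p = 1.00) and 0.06 with lactate and Oxyrase (adjusted p = 0.758), against 0.77 with lactate alone. The peak near Tspan3 had −0.09 with lactate and Oxyrase (adjusted p = 0.594), against −0.83 with lactate alone. The gene-end share of counts was 53.9%, 54.5% and 52.4% with pyruvate and 47.3%, 48.8% and 48.3% with lactate and Oxyrase.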

How the data were processed

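ATAC-seq was deposited as raw read counts in 75802 peaks of mm10, with duplicates and mitochondrial reads removed, per the file headers; BWA, Picard, MACS2 and bedtools are named without roles in the submitters' processing notes, and how peaks were merged is not given in the sources used here. RNA-seq was deposited as estimated counts (RSEM 1.2.12 with Bowtie2 2.2.0, per the submitters' processing notes); the authors name them adjusted counts, and the adjustment is not given in the sources used here. Estimated counts were rounded. Peak coordinates are printed as the deposited file gives them, which does not state whether they start at 0 or 1.

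Both assays were fitted with edgeR 4.0.16 (R 4.3.3): filterByExpr, TMM scaling, 1 quasi-likelihood model over 12 libraries of 4 groups, Benjamini-Hochberg adjustment over all tested peaks or genes, threshold 0.05. The filter removed no peak and left 14749 of 55401 genes. Standard errors were taken from the F statistic (the absolute log2 fold change over its root), on 8 residual degrees of freedom. CPM use the scaled library sizes. The biological coefficient of variation was 9.70% in ATAC-seq and 5.05% in RNA-seq. Gene coordinates of GRCm38.p6 placed the peaks, with 32851 promoter windows from RefSeq; gene identifiers matched symbols in 55141 of 55401 cases. Shares of counts were compared by exact permutation tests. Motifs were searched on both strands.

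Named peaks were the called peaks with the 8 largest rises and 8 largest falls, limited to a mean log2 CPM from 3 upward, groups that did not overlap and a gene name other than Gm, Rik or LOC; the 5 smallest p in each direction; the 6 genes with the most called peaks in each direction; the smallest p at each of 34 genes (in the gene or within 10 kb); and up to 3 called gene-end peaks of each of 28 lists. The comparison, lists and rules were chosen with earlier results of these data known. The model was tested on simulated data with few known changes and no displaced library (119 calls, 4 of them false), so its error rate in the real data is not given by this. Alternatives changed the scaling, filter, threshold, tool (DESeq2 1.42.0), samples, replicate term and the definition of a gene end; separate scaling of gene-end peaks, annotated starts and a trend on promoter GC content were added after seeing the data. Tables and plots used Python 3.11.15, numpy 2.4.6, pandas 2.3.3 and matplotlib 3.10.9.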

Additional observations from a re-analysis of the deposited data

How the results depend on the processing

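The count of 4857 called peaks became 2033 in a test against a 1.1-fold change, 2058 at a threshold of 0.01 and 7512 at 0.10, and ranged from 684 to 11317 with 1 library left out. It stayed within 1.5 times under the other scalings, filters, tools and samples tried (3788 to 5816). The share of lower calls at gene ends, 68.7%, was 73.0% with total counts, 65.4% with scaling from peaks away from gene ends, 61.4% with a trend on accessibility, 46.1% with separate scaling, 75.8% among peaks of mean log2 CPM of at least 3, 72.6% and 65.5% at thresholds of 0.01 and 0.10, 75.8% and 88.8% with ends within 2.5 and 10 kb, 59.3% for annotated starts, and 66.4% to 72.1% with 1 library left out. The gene-end share of counts differed by −4.00 to −2.18 points with 1 library left out. The cause of these shifts was not tested.

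Of 103 called named peaks, 39 were still called without NaCl 2, 53 without lactate 3, 58 without NaCl 1, 75 without lactate 2, 100 without lactate 1 and 103 without NaCl 3; 90 were with separate scaling and 97 with the accessibility trend, and 0 changed direction under any alternative tried. Of 21 named peaks that were not called, 7 were without NaCl 3 and 3 without lactate 1. Of 28 list medians, 3 changed sign with total counts, 1 with scaling from peaks away from gene ends, 4 with the trend, 3 with separate scaling, 3 among peaks of mean log2 CPM of at least 3, 1 without NaCl 1, 2 without NaCl 2 and 2 without lactate 2. In a fit of promoter peaks alone, 3148 were called, and 2983 after a trend on GC content.

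The deviations of same-numbered NaCl and lactate libraries correlated at only 0.07, −0.04 and 0.06, and those of different numbers at −0.14 to 0.09. The other treatments were not compared in this way, and whether a replicate number marks a shared batch was not tested. With the replicate block, which covers all 12 libraries, 6775 peaks were called, against 4857 without it. Of these 1516 were higher and 5259 lower, and 68.7% of the lower ones lay at gene ends. With the block 11 of the 12 transcripts of the chosen genes were called, and 671 transcripts in all, against 1140 without it. With no filter 16 of the chosen and 1724 of all transcripts were called. With 3 libraries a group, changes of 1.25-fold and 1.5-fold were mostly missed in the simulation, in which few peaks were changed.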

Other observations

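Of the 28 promoter peaks that were higher with lactate, 11 belonged to genes with a measured transcript; they were chosen after their values were seen. Txk, which encodes a Tec family kinase of T cells, was higher both at its promoter peak (log2 fold change 0.32) and in its transcript (0.28). Tnfsf8, which encodes the CD30 ligand, was higher at its promoter peak (0.30) and lower in its transcript (−0.50). The transcripts of the other 9 genes, among them Ccdc141, Synpo2 and Nbdy (promoter peaks 0.37, 0.52 and 0.38), did not pass the test.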
